A study of Sus scrofa with 36 samples.

Results

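The 10 genes described here, ND1, ND2, ND4, ND5, ND6, CYTB, COX1, COX2, COX3 and ATP6, are protein-coding genes of the pig mitochondrial genome. They are 10 of the 10133 genes with a name and a probe kept for testing on the liver arrays. Members were the non-control probes whose gene name, accession or description gave one of these genes and which were well above background on 6 or more of 36 arrays. That left 124 probes of the 44796 kept: 20 for ND1, 13 for ND2, 11 for ND4, 3 for ND5, 2 for ND6, 21 for CYTB, 25 for COX1, 5 for COX2, 14 for COX3 and 10 for ATP6. Of these, 123 were well above background on all 36 arrays, and the exception, ND2 probe O13734, on 11. The array also held 3 kept probes for ND3, 1 for ND4L and 1 for ATP8, whose values are given beside the members. No probe was named for a mitochondrial ribosomal or transfer RNA.

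Liver RNA was hybridised to 1 array per animal for 36 growing pigs, all castrated males. Large White pigs (LW), Creole pigs (CR) and crosses of these breeds (F1) numbered 12 each. Of each breed, 6 pigs were killed at 24 °C (thermoneutral, TN) and 6 after heat stress (HS), which the labels put at 30 °C and the growth protocol at 32 °C for 5 days. The comparisons ask how these transcripts differed with HS and with breed in liver. The study's methods state that littermates were spread over the pens of a breed and that HS pigs were killed after TN pigs, so the effect of heat and that of the slaughter day and added age cannot be told apart. Those methods also state that a breed was made up of 3 blocks, each of 4 littermates. If so, the 12 pigs of a breed would carry at most 3 maternal copies of mitochondrial DNA, which was not tested. Neither litter nor the breed of the F1 dams is in the labels, so every breed p-value treats littermates as independent animals and may be too small.

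Mitochondrial DNA is a small circle inherited from the mother, so littermates carry the same copy. Its protein-coding genes specify subunits of the respiratory chain: the ND proteins belong to complex I, which takes electrons from NADH, cytochrome b (CYTB) is the catalytic core of complex III, the COX proteins form the core of complex IV, which hands electrons to oxygen, and ATP6 with ATP8 belongs to the ATP synthase, complex V. All of them are cut from long transcripts of the circle and most are read from the same strand, with ND6 on the opposite one. Liver cells are rich in mitochondria, so these messages are among the most abundant in the tissue.

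Several probes of 60 bases covered nearly the same stretch of a transcript but differed by 1 or 2 substitutions. The sequences of such pairs are shown first because members of a pair did not always vary alike among the animals. Capitals mark the bases at which the members of a pair differ by a substitution. Positions in a token are counted from 1 at the 5′ end of the first-named probe, whose base comes first. In COX1 the second probe differed by A39C, in COX2 by T45A, in ND2 by A13G, in CYTB by C18T and A39G, in COX3 by G19A and in ND1 by C58T. Apart from the CYTB pair, the probes of a pair also differ in where they start. In all pairs but that of COX2, 1 or 2 further bases are present in only 1 of the probes and are not marked.
COX1 A_72_P721538: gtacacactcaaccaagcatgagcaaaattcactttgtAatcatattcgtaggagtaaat
COX1 A_72_P762153: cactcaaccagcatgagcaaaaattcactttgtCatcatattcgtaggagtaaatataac
COX2 A_72_P751248: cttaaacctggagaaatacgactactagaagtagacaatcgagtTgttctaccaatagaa
COX2 A_72_P746371: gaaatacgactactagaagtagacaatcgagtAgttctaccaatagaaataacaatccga
ND2 A_72_P719508: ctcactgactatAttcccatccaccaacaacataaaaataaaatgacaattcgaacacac
ND2 A_72_P727968: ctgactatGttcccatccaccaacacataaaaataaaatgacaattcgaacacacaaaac
CYTB A_72_P355338: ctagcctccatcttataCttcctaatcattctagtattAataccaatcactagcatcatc
CYTB A_72_P749269: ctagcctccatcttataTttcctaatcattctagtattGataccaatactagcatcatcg
COX3 A_72_P722568: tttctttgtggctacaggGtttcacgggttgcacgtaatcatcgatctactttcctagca
COX3 A_72_P759849: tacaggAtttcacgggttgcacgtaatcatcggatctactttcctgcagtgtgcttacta
ND1 A_72_P757573: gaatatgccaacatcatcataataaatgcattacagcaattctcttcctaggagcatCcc
ND1 A_72_P758032: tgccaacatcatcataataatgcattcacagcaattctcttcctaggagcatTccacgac

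The 2 ND6 probes are shown because their differences ran in opposite directions in every breed comparison with F1. They do not overlap and their base composition is unlike: cytosine plus adenine made up 28.3% of A_72_P442203 and 68.3% of O2495. A_72_P442203 lies in an annotated ND6 transcript, and its share is below that of all 119 probes on the other transcripts, which ran from 40% to 76.7%. For O2495, named ND6 by the array and within that range, the strand it reads was not settled, so its values are those of the probe and not of the ND6 message.
ND6 A_72_P442203: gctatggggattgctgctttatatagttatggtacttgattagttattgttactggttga
ND6 O2495: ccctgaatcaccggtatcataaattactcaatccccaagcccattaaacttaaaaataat

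Probes O13550 of COX1 and O13734 of ND2 share stretches of 20 bases with the opposite strand of other probes of their gene. They were dim and are counted among the members as the rule requires. For ND4 probe O5353, also dim, the strand could not be read from such stretches. The same holds for the brighter probes O7769 of ND5, O5218 of COX2 and O11951 of COX3, so their values are those of the probes.

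Values are given as log2 of the quantile-normalized median spot signal. Array medians before normalization ranged from 70 to 92 intensity units, between 39644 and 44025 of 60306 non-control spots were well above background, and no spot was saturated. A probe was called different where its adjusted p in limma was under 0.05 over all 44796 probes. Levels of different probes cannot be set against each other, because probes differ in affinity, and for any 1 probe the amount of a transcript and its match to the probe cannot be told apart. In whole liver, fewer cells of a type and less RNA per cell cannot be told apart either. Summed signal of the 8 kept hepatocyte markers of a list of 10 lay between 20.80 and 21.03 in all animals, so markers that define hepatocytes were bright in every liver.

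The largest differences among these transcripts lay between sets of animals, and some probes of a gene showed them while others did not. Signal of COX1 probe A_72_P762153 spanned 4.61 on the log2 scale, from 12.45 to 17.06, and fell into levels with no animal between 14.47 and 16.28. The upper level held 18 animals: all 12 F1, 4 LW and 2 CR. Of these 18, 9 were TN and 9 HS, and every slide had arrays on both levels.

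In LW the values of this probe had a lowest of 12.92, a median of 13.66 and a highest of 16.74. Creole pigs ran from 12.45 through a median of 13.70 to 17.06, and F1 pigs from 16.45 through 16.74 to 16.97. The other probe of the pair, A_72_P721538, spanned only 0.50, with LW between 17.54 and 17.90, CR between 17.56 and 18.02 and F1 between 17.81 and 18.03. Thus animals that differed by over 4 units on one probe lay within 0.50 on the other.

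Across the 124 probes, 9 had a gap of at least 0.4 with 12 to 24 animals below it, and in all 9 the same 18 animals were above. They were COX1 A_72_P762153, CYTB A_72_P355338, COX3 A_72_P750221, ND2 A_72_P737152, A_72_P719508 and A_72_P442176, and ND1 A_72_P739924, A_72_P745561 and A_72_P769233. The LW pigs among the 18 were TN replicates 2 and 3 and HS replicates 1 and 2, and the CR pigs were TN replicate 6 and HS replicate 1. Replicate numbers only name the animals.

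COX2 probe A_72_P746371 had the widest range of all members, 6.92, and 3 levels. Values from 15.73 to 16.39 were those of the same 18 animals, 14 animals lay between 13.05 and 13.82, and 4 CR pigs (TN replicates 4 and 5, HS replicates 5 and 6) lay between 9.47 and 10.11. Its pair A_72_P751248 ranged over 1.06. The same 4 CR pigs were also lowest on COX3 probe A_72_P760010, from 11.80 to 12.61, whereas the other 32 animals lay between 14.78 and 16.30.

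**Figure D1:**
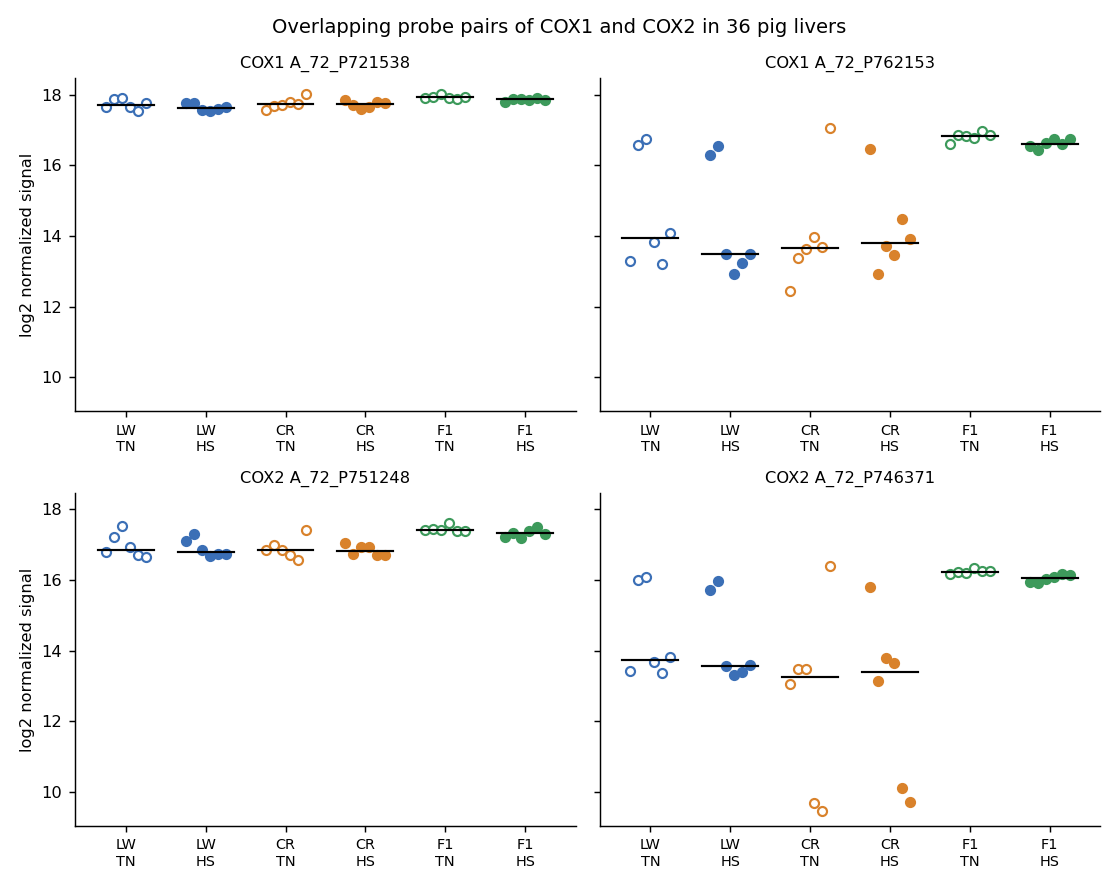
Log2 normalized signal (y axis) of the overlapping COX1 and COX2 probe pairs in the 6 groups of breed and temperature (x axis), 1 point per animal (36 animals), open for TN and filled for HS, with a line at the group median. On COX1 A_72_P762153 the animals lie at 14.47 or lower or at 16.28 or higher, with all 12 F1 above, while on A_72_P721538 they lie within 0.50 of each other.

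Other pairs also varied unequally. ND2 A_72_P719508 ranged over 4.05 and A_72_P727968 over 2.39, and across the 36 animals, which share these arrays, Pearson's r between them was 0.98. CYTB A_72_P355338 ranged over 1.99 and A_72_P749269 over 0.75, with r of 0.44. For COX3 A_72_P722568 and A_72_P759849 the ranges were 0.71 and 0.29 and r was 0.03, and for ND1 A_72_P757573 and A_72_P758032 they were 1.61 and 1.42 with r of 0.26.

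Altogether 102 pairs of member probes overlapped by at least 20 bases, and 82 of the 124 probes were in a pair. The 29 pairs with a substitution had a median difference in range of 0.22 and a largest of 5.86, with a median r of 0.81 and a lowest of -0.11. The 53 pairs that differed only by a gap had a median difference of 0.15 and a largest of 2.43, and the 20 pairs identical over their overlap 0.39 and 2.74, both with a median r of 0.93. Unequal ranges were therefore present too in pairs without a substitution in their overlap. However, the overlap could be a small part of the probes. It was 33 bases for the COX3 pair with 2.74, A_72_P760010 and A_72_P759028. For the COX3 pair with 2.43, A_72_P750221 and A_72_P760010, it was 22 bases. Bases outside the overlap were not compared, so whether a mismatch there had a part in the unequal ranges was not tested.

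Ranges over the 36 animals were under 0.5 for 19 members, from 0.5 to under 1 for 34, from 1 to under 2 for 55 and at least 2 for 16. The median was 1.06, against 0.89 over all kept probes with complete values. Members with a range of at least 2 made up 12.9%, against 6.04% of all kept probes. By gene, median ranges ran from 0.65 in ATP6 and 0.72 in COX1 to 1.45 in ND1 and 2.34 in ND2. The narrowest member range, 0.25, was that of a COX1 probe, A_72_P736144, so COX1 held both nearly constant and widely ranging probes.

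**Figure D2:**
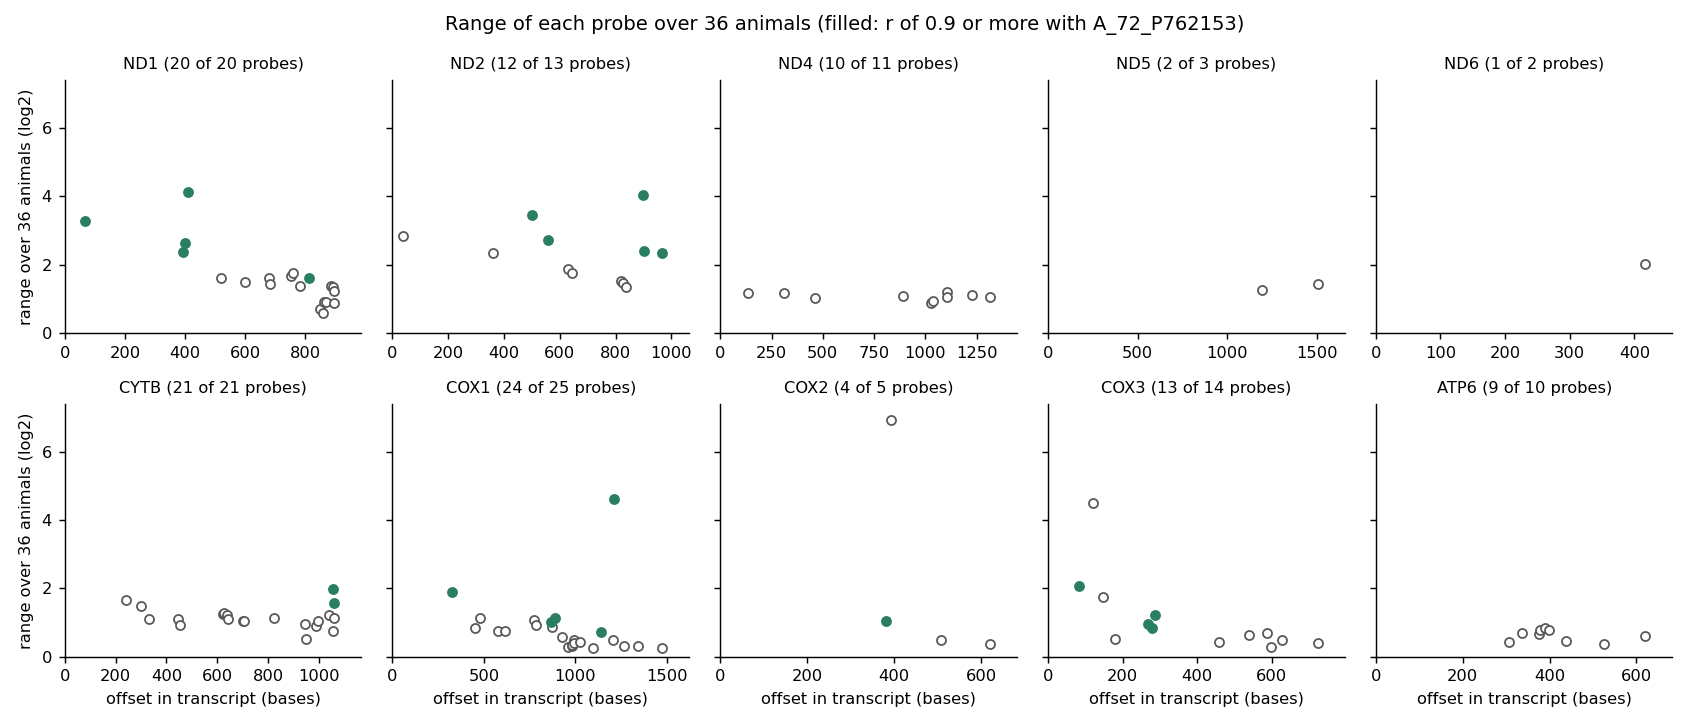
Range over the 36 animals (log2, y axis) of member probes against their offset in the transcript (bases, x axis), 1 panel per gene, for the probes with a known offset, filled where Pearson's r with COX1 A_72_P762153 is 0.9 or more. Most probes lie under 2, filled probes occur in ND1, ND2, CYTB, COX1, COX2 and COX3, ATP6 does not exceed 0.84, and COX2 A_72_P746371 reaches 6.92.

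Pearson's r with COX1 A_72_P762153 over the 36 animals, to 2 decimals, was 0.9 or more for 23 members including itself (5 each of ND1, ND2, COX1 and COX3, 2 of CYTB and 1 of COX2), from 0.5 to under 0.9 for 57 and lower for 44. No probe of ND4, ND5, ND6 or ATP6 reached 0.9. Of the 44723 kept probes with complete values, 3 that are not members reached it: ND3 A_72_P757289 (0.90), A_72_P201832 (0.98), which the array describes by a likeness to transmembrane protease serine 6, and A_72_P478771 of PLEKHD1 (0.96). Median F1 minus LW differences in these classes were 0.93, 0.37 and 0.14, which is a description, since the classes were set on the same animals.

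In the comparison of F1 with LW, 90 of 124 member probes (72.6%) were higher in F1 and none lower. Of all kept probes 18.4% were called, 9.13% higher and 9.24% lower. The median difference was 0.30, and 118 of the 124 probes lay above 0. All 12 F1 but only 4 LW pigs were on the upper level of the probes with separate levels, so breed and level overlapped. Pearson's r with COX1 A_72_P762153 was 0.5 or more for 80 members. How much of the F1 minus LW differences followed that division of the animals was not tested. All genes but ND6 had at least 1 higher probe of the annotated strand, and for ND6 the only higher probe was O2495. The called differences ran from 0.13 in ATP6 to 2.24 in COX1.

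For complex I, all 13 ND2 probes were higher in F1 than in LW. In 12 of them the difference was 0.45 to 2.22, and the other, O13734, reads the opposite strand, had a mean of 5.29 and was well above background on 11 of 36 arrays (0.30). ND2 is a core membrane subunit. Its brightest probe, A_72_P732228, had a lowest, median and highest value of 15.87, 16.44 and 16.69 in LW, 16.08, 16.37 and 16.95 in CR and 16.57, 16.76 and 17.21 in F1. The LW median lay below the lowest F1 value, and the highest LW pigs reached into the F1 range. F1 exceeded LW by 0.45 ± 0.09 (SE, adjusted p = 0.0016), a ratio of 1.37. The 12 other higher probes were A_72_P442176, A_72_P719183, A_72_P719508, A_72_P724458, A_72_P726683, A_72_P727968, A_72_P734766, A_72_P735078, A_72_P737152, A_72_P741589, A_72_P766062 and O13734.

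ND1, the subunit next to the quinone site, had 19 of 20 probes higher, by 0.20 to 2.08. The brightest, A_72_P763439, lay between 17.46 and 17.94 in LW (median 17.76), between 17.74 and 18.01 in CR (17.89) and between 17.81 and 18.06 in F1 (17.93). Groups overlapped, and the difference was 0.20, with an adjusted p of 0.0042. Also higher were A_72_P225927, A_72_P725283, A_72_P729778, A_72_P730638, A_72_P739924, A_72_P741454, A_72_P741664, A_72_P742557, A_72_P745440, A_72_P745561, A_72_P748717, A_72_P753106, A_72_P754234, A_72_P755299, A_72_P757573, A_72_P769233, A_72_P772081 and A_72_P775064. The remaining probe, A_72_P758032, differed by -0.07 ± 0.11 (adjusted p = 0.73).

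All 3 ND5 probes were higher, by 0.52 to 0.66. ND5 is a membrane subunit in the proton-pumping arm. On O7769, LW had 14.49, 15.02 and 15.41 (lowest, median, highest), CR 15.21, 15.41 and 15.64, and F1 15.27, 15.51 and 15.72. The LW median lay below the lowest F1 value. The difference was 0.52 ± 0.08 (adjusted p = 8.8e-05), and probes A_72_P155721 and A_72_P725983 were higher too.

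ND4, another proton-pumping subunit, had 9 of 11 probes higher, by 0.18 to 0.47. A_72_P764558 ran from 16.53 through 16.88 to 17.09 in LW, from 16.89 through 17.12 to 17.45 in CR and from 16.89 through 17.05 to 17.24 in F1. Here CR and F1 both began at 16.89, just above the LW median, with F1 above LW by 0.24 ± 0.06 (adjusted p = 0.011). The others were A_72_P127246, A_72_P725193, A_72_P731718, A_72_P738029, A_72_P742361, A_72_P758317, A_72_P759676 and A_72_P761304. The dim probe O5353 differed by -0.06 (adjusted p = 0.67).

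O2495, the ND6-named probe of unsettled strand, had 14.65, 15.10 and 15.81 in LW, 15.01, 15.53 and 16.08 in CR and 15.71, 15.94 and 16.20 in F1. The F1 median lay above the highest LW value, and the difference was 0.74 ± 0.12 (adjusted p = 0.00023). On O2495 the 4 LW pigs of the upper level lay at 15.5 to 15.8 and the other LW pigs at 14.7 to 15.3. The 2 CR pigs of that level lay at 15.6 and 16.1, and the other CR pigs at 15.0 to 15.8. The probe in the ND6 transcript, A_72_P442203, with a mean of only 7.72, differed by -0.35 ± 0.16 (adjusted p = 0.13). Of the genes outside the 10, ND3 had 2 of 3 probes higher, A_72_P028386 by 0.54 and A_72_P757289 by 0.74, and ND4L probe A_72_P442199 was higher by 0.23 (adjusted p = 0.015).

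CYTB of complex III had 15 of 21 probes higher, by 0.14 to 0.93. Its brightest probe, A_72_P729443, had 17.49, 17.89 and 18.22 in LW, 17.84, 17.98 and 18.40 in CR and 18.09, 18.22 and 18.37 in F1. The F1 median equalled the highest LW value, and the difference was 0.30 ± 0.06 (adjusted p = 0.0015). The other 14 were A_72_P355338, A_72_P720858, A_72_P721553, A_72_P722655, A_72_P724485, A_72_P725813, A_72_P726128, A_72_P727568, A_72_P732420, A_72_P733846, A_72_P740839, A_72_P749269, A_72_P757587 and A_72_P761811. CYTB probes A_72_P726943 and A_72_P742740 were called in no comparison.

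In complex IV the brightest probes moved little. COX1 A_72_P724398 lay between 18.36 and 18.72 in LW (median 18.51), between 18.33 and 18.65 in CR (18.45) and between 18.45 and 18.73 in F1 (18.54), and F1 minus LW was 0.05 (adjusted p = 0.45). COX2 A_72_P442181 had medians of 18.26, 18.24 and 18.29 in LW, CR and F1 and a difference of 0.05 (adjusted p = 0.37). Neither passed the test in any comparison, and the 3 breeds overlapped on both.

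Nevertheless 9 of 25 COX1 probes were higher in F1, by 0.21 to 2.24: A_72_P721538, A_72_P724343, A_72_P728848, A_72_P735713, A_72_P739136, A_72_P747791, A_72_P752754, A_72_P762153 and the opposite-strand probe O13550. The difference of A_72_P762153 was 2.24 ± 0.47 (adjusted p = 0.0017), and that of its pair A_72_P721538 0.21 ± 0.05 (adjusted p = 0.0026). For COX2, A_72_P729033, A_72_P746371, A_72_P751248 and O5218 were higher, by 0.14 to 1.82. On A_72_P751248, LW ran from 16.67 through 16.82 to 17.53 and F1 from 17.20 through 17.39 to 17.62, a difference of 0.44 (adjusted p = 0.0011). The other 14 COX1 probes, among them A_72_P724398 and A_72_P736144, were called in no comparison.

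COX3 had 9 of 14 probes higher, by 0.15 to 0.93. The brightest, A_72_P722568, had 18.23, 18.61 and 18.79 in LW, 18.47, 18.57 and 18.85 in CR and 18.67, 18.77 and 18.94 in F1, with F1 above LW by 0.19 ± 0.05 (adjusted p = 0.0086). Its pair A_72_P759849 was at the same level in F1 and LW (adjusted p = 0.96). The others that were higher were A_72_P719538, A_72_P720611, A_72_P720718, A_72_P743772, A_72_P750221, A_72_P756042, A_72_P759028 and O11951. COX3 probes A_72_P442194, A_72_P723993, A_72_P756742 and A_72_P759849 were called in no comparison.

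ATP6 of complex V had 8 of 10 probes higher, by 0.13 to 0.32. ATP6 forms part of the proton channel of the enzyme. A_72_P753825 had 18.00, 18.25 and 18.45 in LW, 18.11, 18.28 and 18.45 in CR and 18.27, 18.38 and 18.48 in F1. The groups overlapped, with F1 above LW by 0.13 ± 0.05 (adjusted p = 0.043). A_72_P718938, A_72_P721760, A_72_P722198, A_72_P722713, A_72_P734087, A_72_P736534 and A_72_P737289 were higher as well, whereas A_72_P442189 and O2494 were called in no comparison. ATP8 A_72_P442187 was higher by 0.39 (adjusted p = 0.0079).

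**Figure D3:**
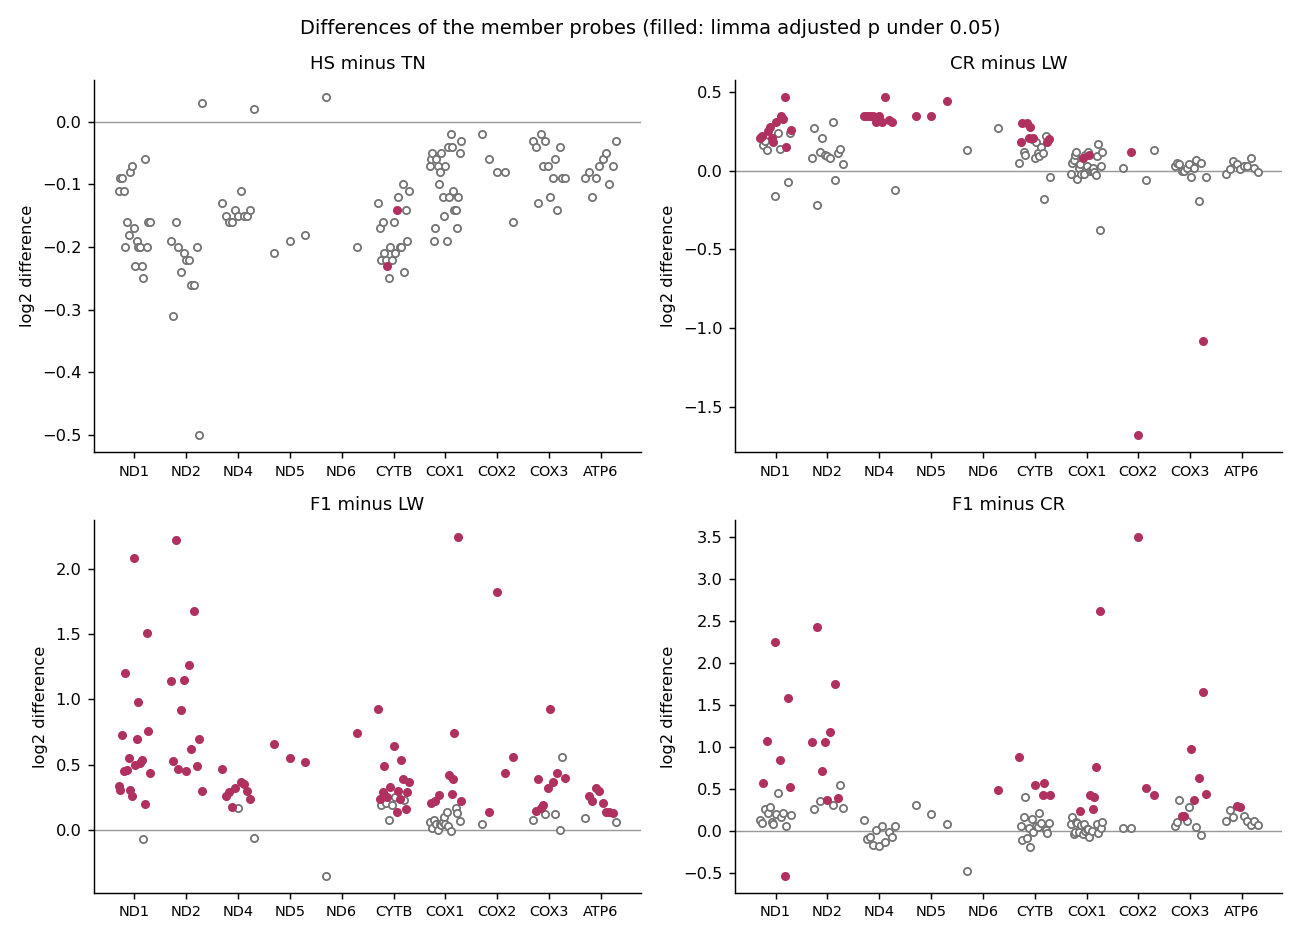
Log2 difference (y axis, scaled separately in each panel) of the 124 member probes by gene (x axis) for HS minus TN, CR minus LW, F1 minus LW and F1 minus CR, 1 point per probe, filled where the limma adjusted p is under 0.05. F1 minus LW has 90 probes called, all above 0, and HS minus TN has 121 probes below 0, of which 2 are called.

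Within slides 2, 3, 4 and 5, medians of F1 minus LW over the 124 probes were 0.06, 0.20, 0.62 and 0.34. Slide 1 could not give a value. The count of called probes was 41 without slide 4, 4 with TN pigs alone and 36 with HS pigs alone. Macrophage markers moved with breed as well: 6 of the 7 kept were lower in F1 than in LW, and their summed signal ranged from 15.25 to 16.06 in LW TN, 15.50 to 15.92 in LW HS, 14.81 to 15.45 in F1 TN and 14.46 to 15.69 in F1 HS. Of the 8 markers on that list, 1 had no kept probe. In addition 3 of 7 lymphocyte and 3 of 5 endothelial markers were lower in F1, as were 1 of 8 hepatocyte markers (APOH, by 0.19 on the log2 scale) and 1 of 6 stellate cell and fibroblast markers (COL1A2, by 0.50). No cholangiocyte or erythroid marker was called. Each marker was counted by its brightest probe alone. The part of the markers in the breed differences was not tested.

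In the comparison of CR with LW, complex I genes held most of the higher probes: 10 of 11 ND4 probes, all 3 ND5 probes and 12 of 20 ND1 probes were higher in CR. Over the 10 genes 36 of 124 probes (29%) were higher and 2 (1.61%) lower, where 26.5% of all kept probes were called, 13.6% higher and 12.9% lower. The median difference was 0.10. ND2, ND6 and ATP6 had no called probe.

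ND4 probes were higher by 0.31 to 0.47, with the largest value on A_72_P759676 (0.47 ± 0.07, adjusted p = 1.3e-05) and 0.31 ± 0.06 on A_72_P764558 (adjusted p = 0.0006). A_72_P752715 was higher in this comparison alone, and O5353 differed by -0.12 (adjusted p = 0.31). ND5 probes were higher by 0.35 to 0.44, with 0.44 ± 0.08 on O7769 (adjusted p = 9.5e-05). ND1 probes were higher by 0.15 to 0.47, and the brightest, A_72_P763439, by 0.15 (adjusted p = 0.019). Among them was A_72_P758032, which was not called in F1 against LW. ND1 A_72_P745561 and A_72_P769233 had values of -0.16 and -0.07 that did not pass the test.

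ND4L, whose message is joined to that of ND4, was also higher in CR: A_72_P442199 had 14.46, 14.82 and 15.21 in LW, 14.98, 15.28 and 15.64 in CR and 14.76, 15.03 and 15.27 in F1. The difference was 0.48 (adjusted p = 4.5e-06). ND3 probe O2102 was higher by 0.35 (adjusted p = 0.002).

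CYTB had 8 of 21 probes higher by 0.18 to 0.30, among them A_72_P721121, A_72_P723790, A_72_P725783 and A_72_P726067, which were not called in F1 against LW. The brightest, A_72_P729443, differed by 0.09 (adjusted p = 0.30). COX1 probes A_72_P735172 and A_72_P729588 were higher by 0.10 and 0.08, against -0.05 on the brightest COX1 probe, and COX2 A_72_P729033 by 0.12.

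Both lower probes were those with the 4 low CR pigs. COX2 A_72_P746371 was lower by 1.68 ± 0.60 on the log2 scale (adjusted p = 0.036) and COX3 A_72_P760010 by 1.08 ± 0.38 (adjusted p = 0.032). Without slide 3, neither was called. On the brightest probes of COX2 and COX3, CR minus LW was 0.02 and 0.00.

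The CR minus LW count depended on scaling. With Agilent's processed signal 19 probes were higher and 2 lower, with each array only centred on its median 10 and 2, and in the log2 values of the authors 14 were higher and 2 lower. ND4 kept 10, 8 and 9 called probes in these. With median centring the gene medians of COX1, COX2, COX3 and ATP6 turned from 0.03, 0.02, 0.02 and 0.02 to -0.01, -0.01, -0.03 and -0.03. Within slides 2 to 5 the medians over the 124 probes were -0.19, -0.03, 0.35 and 0.43, so the direction over all members did not hold within every slide, and 13 probes were called without slide 4 and 11 without slide 5. Of the 7 kept macrophage markers 6 were lower in CR than in LW as well, with summed signal of 14.47 to 15.11 in CR TN and 14.44 to 14.90 in CR HS, and 4 of 7 lymphocyte and 4 of 5 endothelial markers were lower too. Hepatocyte markers APOH (-0.22), FGB (-0.20) and APOA1 (-0.12) were lower in CR, 3 of 8 kept, and the cholangiocyte marker KRT7, 1 of 4, was higher (0.74, adjusted p = 0.00034). Their part was not tested here either.

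F1 also exceeded CR on 38 of 124 probes (30.6%) and was lower on 1 (0.806%), where 1.5% of all kept probes were called, 0.759% higher and 0.746% lower. The median difference was 0.15. The count was carried by 8 ND2, 6 ND1, 7 COX3, 6 COX1, 5 CYTB, 3 COX2, 2 ATP6 probes and ND6 O2495, and no ND4 or ND5 probe was called.

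ND2 A_72_P732228 was higher in F1 than in CR by 0.36 ± 0.09 (adjusted p = 0.038), ND6 O2495 by 0.48 ± 0.12 (adjusted p = 0.036) and COX3 A_72_P722568 by 0.18 ± 0.05 (adjusted p = 0.044). The largest values were on the probes with separate levels, 2.62 ± 0.47 on COX1 A_72_P762153 (adjusted p = 0.0017) and 3.50 ± 0.60 on COX2 A_72_P746371 (adjusted p = 0.0012). On the brightest ND4 and ND5 probes the values were -0.07 ± 0.06 and 0.08 ± 0.08, neither past the threshold.

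The probe that was lower in F1 was ND1 A_72_P758032. Creole pigs had 15.59, 16.54 and 16.95 (lowest, median, highest), F1 pigs 15.74, 15.90 and 16.38 and LW pigs 15.53, 15.99 and 16.45. CR reached above both other breeds, and F1 minus CR was -0.54 ± 0.11 (adjusted p = 0.0063). On its pair A_72_P757573 the order was another one, with medians of 15.13 in LW, 15.35 in CR and 15.51 in F1. ND6 A_72_P442203 differed by -0.48 (adjusted p = 0.14), against the direction of O2495, and ND3 O2102 was lower by 0.33 on the log2 scale while A_72_P028386 was higher by 0.33.

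Set against the mean of both parental breeds, F1 was higher on 58 of 124 probes (46.8%) and lower on none, where 1.12% of all kept probes were called, 0.462% higher and 0.659% lower. The median difference was 0.21. Because mitochondrial DNA comes from the mother alone, the parental mean is only a point of reference here and not an expected value for F1. On the 9 probes with separate levels, 4 LW and 2 CR pigs lay on the same level as the F1 pigs, so a parental mean mixes both levels. By gene the counts were 14 for ND1, 11 for ND2, 1 for ND4 (A_72_P127246, by 0.30), 3 for ND5, 1 for ND6, 7 for CYTB, 7 for COX1, 3 for COX2, 8 for COX3 and 3 for ATP6. ND6 O2495 exceeded the parental mean by 0.61 (adjusted p = 0.002), ND2 A_72_P732228 by 0.41 (0.0071), ND5 O7769 by 0.30 (0.017), CYTB A_72_P729443 by 0.25 (0.0093) and COX3 A_72_P722568 by 0.19 (0.02). Without passing the test, 3 probes went the other way from the brightest probe of their gene: ND6 A_72_P442203 (-0.41), CYTB A_72_P725783 (-0.06) and COX3 A_72_P759849 (-0.03).

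These breed comparisons share animals, so their counts are not independent of each other. Without slide 2, 3 or 4 the count for F1 minus CR was 8, 4 or 14, and for F1 minus the parental mean it was 15 without slide 3 and 14 without slide 4. Within slides 2 to 5 the median of F1 minus CR was 0.25, 0.18, 0.25 and -0.03, and that of F1 minus the parental mean 0.15, 0.21, 0.44 and 0.15. With TN pigs alone or HS pigs alone no member passed the threshold in limma in either comparison, although 49 and 55 passed an unadjusted p of 0.05 for F1 minus CR and 73 in each for F1 minus the parental mean.

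**Figure D4:**
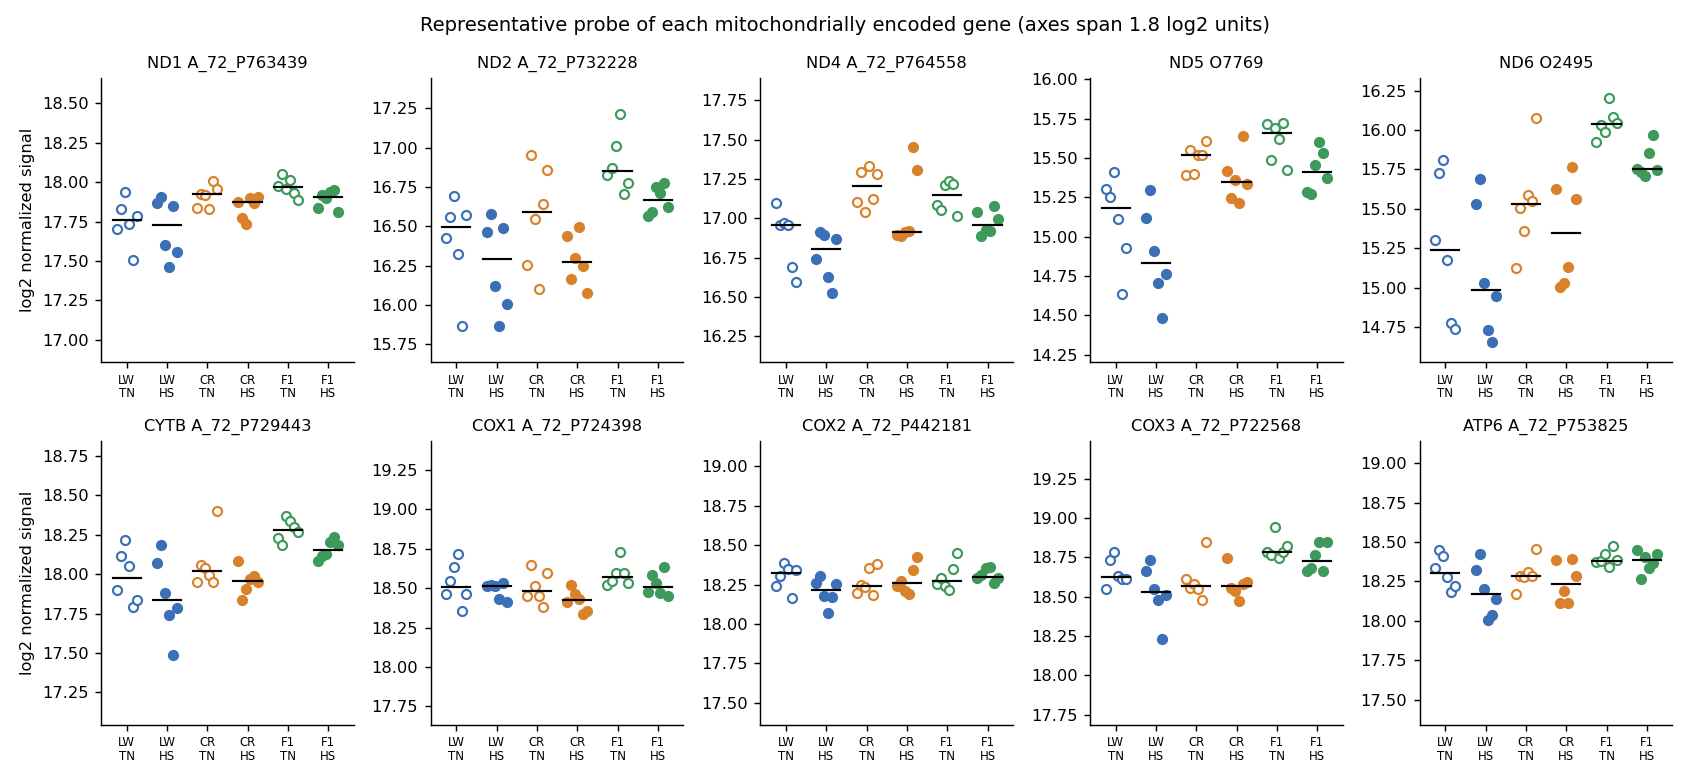
Log2 normalized signal (y axis) of the brightest probe of each member gene by breed and temperature (x axis), 1 point per animal, open for TN and filled for HS, with a line at the median of 6. Within each temperature the F1 medians lie highest on ND2, ND6, CYTB and COX3 and the LW medians lowest on ND4 and ND5. The breeds overlap on COX1 and COX2.

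Heat stress moved these transcripts little. Of 124 probes 2 (1.61%) were lower in HS and none higher, where 0.859% of all kept probes were called, 0.435% higher and 0.424% lower. Both were CYTB probes. The differences were nevertheless mostly on one side: 121 of 124 probes lay below 0, with a median of -0.14, against a median of 0.001 over all kept probes.

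On CYTB A_72_P724485 the lowest, median and highest values were 15.79, 16.26 and 16.60 in TN and 15.50, 16.03 and 16.37 in HS. The groups overlapped, with HS lower by 0.23 ± 0.06 on the log2 scale (adjusted p = 0.046), or to 0.85 of the TN level. CYTB A_72_P727568 had 17.36, 17.62 and 17.74 in TN and 17.22, 17.45 and 17.69 in HS, a difference of -0.14 ± 0.04 (adjusted p = 0.049). The brightest CYTB probe, A_72_P729443, differed by -0.12 ± 0.05 (adjusted p = 0.26). The call on A_72_P724485 disappeared in 25 of the 36 leave-one-animal-out fits and that on A_72_P727568 in 28.

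By gene the median difference was -0.20 in CYTB, where 17 of 21 probes passed an unadjusted p of 0.05, -0.22 in ND2, -0.19 in ND5, -0.17 in ND1 and -0.15 in ND4. It was -0.08 in ND6, COX1, COX2 and ATP6 and -0.07 in COX3. In all, 54 members (43.5%) passed the unadjusted threshold, against 13.1% of all kept probes. Members lie on shared transcripts and arrays and are not independent. Of the genes outside the 10, ATP8 differed by -0.31 (adjusted p = 0.053) and the brightest probes of ND3 and ND4L lay below 0 as well.

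On the brightest ND2 probe, A_72_P732228, TN ran from 15.87 through 16.67 to 17.21 and HS from 15.87 through 16.48 to 16.77, a difference of -0.22 ± 0.08 (adjusted p = 0.16). For ND5 O7769 the values were 14.64, 15.46 and 15.72 in TN and 14.49, 15.29 and 15.64 in HS (-0.18 ± 0.06, adjusted p = 0.15). ND4 A_72_P764558 differed by -0.14 (adjusted p = 0.22), ND6 O2495 by -0.20 (0.40), ND1 A_72_P763439 by -0.06 (0.53) and those of COX1, COX2, COX3 and ATP6 by -0.07 to -0.02. TN and HS overlapped on all of them.

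Within breeds no member was called in limma, and of all kept probes 0%, 0% and 0.00893% were called in LW, CR and F1 (in F1 0.00446% in each direction). Median differences for LW, CR and F1 were -0.13, -0.09 and -0.16, and 10, 2 and 20 members passed an unadjusted p of 0.05. The interaction of breed and temperature was called for no member, where 0% of all kept probes were, no member passed it unadjusted, and the smallest adjusted p was 0.995. Within slides 2 to 5 the median of HS minus TN was -0.19, -0.07, -0.10 and -0.17. No marker of hepatocytes, macrophages, lymphocytes or endothelial cells was called between HS and TN.

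Summed over the 124 probes, the members took a large part of the signal of an array: 10% ± 1.1 (SD, n = 6) in LW TN, 9.2% ± 1.1 in LW HS, 10.5% ± 1.0 in CR TN, 9.9% ± 0.7 in CR HS, 12.1% ± 0.5 in F1 TN and 11.4% ± 0.4 in F1 HS. F1 pigs lay between 10.8% and 13%, and 1 CR pig reached 12.3%. The sum is dominated by the brightest probes and is given as a description.

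**Figure D5:**
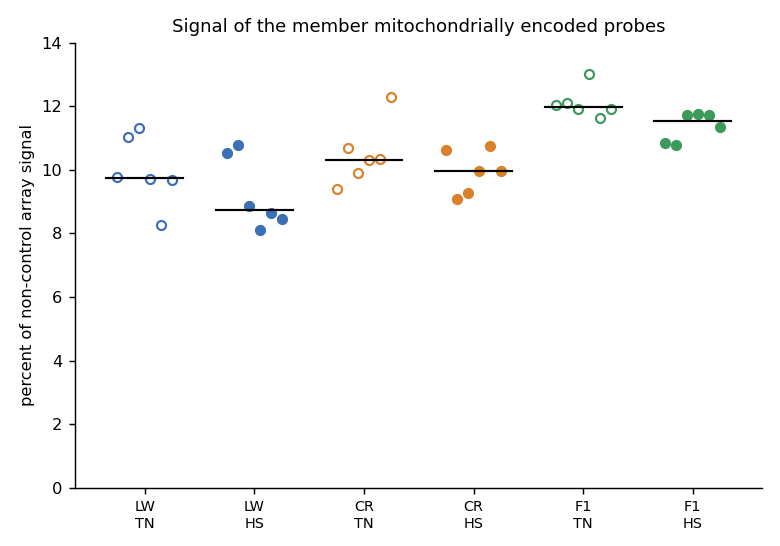
Percent of the non-control signal of each array (y axis) taken by the 124 member probes, by breed and temperature, 1 point per animal and a line at the median of 6. F1 TN lies between 11.6% and 13%, and LW HS has the lowest median (8.8%).

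Nuclear genes encode the remaining subunits of these complexes, and their calls ran in both directions. Each listed gene was counted by its brightest probe alone, whereas members were counted over all their probes. Of 33 kept nuclear complex I subunits of a list of 37, 1 was higher and 5 were lower in F1 than in LW, with a list median of -0.01, beside 9.13% higher and 9.24% lower among all kept probes. NDUFS8, which holds iron-sulphur clusters, was higher by 0.26, while NDUFC1 and NDUFS4 were lower by 0.29 and 0.25 on the log2 scale. Between CR and LW 5 were higher and 5 lower of the 33, beside 13.6% higher and 12.9% lower among all kept probes, with NDUFS8 at 0.48, NDUFC1 at -0.42 and NDUFV3 at -0.41. Against CR, F1 was higher on 2 and lower on 2, with NDUFV3 at 0.39, NDUFS4 at -0.33 and NDUFA9 at 0.31, and against the parental mean only NDUFS4 was called (-0.29).

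Of the 8 kept complex III and 3 kept complex II subunits none was called on its brightest probe in any comparison by limma. Of 9 kept complex IV subunits of a list of 11, COX6A1 was lower in F1 than in LW (-0.20, adjusted p = 0.018). COX7B was lower in HS (-0.23 ± 0.04, adjusted p = 0.0046) and was the only nuclear subunit of the chain called for temperature on its brightest probe. Of 18 kept ATP synthase subunits of 19, ATP5G3 and ATP5O were lower in CR than in LW by 0.18 and 0.15 on the log2 scale, and ATP5G3 in F1 by 0.18.

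Lists of genes that read, process or maintain mitochondrial DNA and RNA were small, and their called shares are to be read beside the 26.5% of all kept probes called in CR minus LW and 18.4% in F1 minus LW. TFB1M, a methyltransferase of mitochondrial ribosomal RNA, was 1 of 3 kept of 9 transcription genes and was higher by 0.41 in CR and 0.27 in F1 than in LW. LRPPRC, which stabilises mitochondrial messages, was higher by 0.45 in CR (adjusted p = 6.7e-06) and by 0.28 in F1 (adjusted p = 0.0034). In CR, TBRG4 (0.27) and FASTK (0.15) were higher too, so that 3 of 13 kept RNA processing genes of a list of 20 were higher and none lower, where 13.6% of all kept probes were higher. In F1 2 of the 13 were higher than in LW, where 9.13% of all kept probes were. ELAC2, which cuts transfer RNAs from the long transcripts, was the other, higher by 0.34.

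Among 7 kept maintenance genes of a list of 14, DGUOK, a mitochondrial nucleoside kinase, was higher in CR than in LW by 0.39. RRM2B, a ribonucleotide reductase subunit, and SSBP1, which binds single-stranded mitochondrial DNA, were lower by 0.29 and 0.24 on the log2 scale. SSBP1 was lower in F1 than in LW by 0.23 and DGUOK lower in F1 than in CR by 0.30. SUCLG1, also on that list, was lower in HS (-0.23 ± 0.05, adjusted p = 0.0091). Of 10 kept translation factors MTIF2 was higher in CR and F1 than in LW by 0.30 and 0.28.

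Of 8 kept biogenesis regulators, the mitochondrial deacetylase SIRT3 was lower in CR than in LW by 0.39 and higher in F1 than in CR by 0.23, and PPRC1 was higher in CR than in LW by 0.14. Of 12 kept mitochondrial chaperones and proteases 3 were higher in CR than in LW, TRAP1 by 0.98, HSPD1 by 0.29 and LONP1 by 0.28, and 1 was lower. None of the 12 was called between HS and TN.

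Members were also compared with each other within groups. Pearson's r between the brightest probes of 2 member genes, taken over 36 animals after the mean of each of the 6 groups was subtracted, had a median of 0.46 over 45 pairs. It ran from 0.05 for ND2 with ND4 to 0.88 for ND6-named O2495 with ATP6, and none was below 0. The 36 values share arrays and their normalization.

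The named nuclear genes whose pattern was most like the mean of the brightest member probes, by the same measure among 10105 genes, were CEND1 (r of 0.78), PLEKHD1 (0.77), EPB42 (0.71), SLCO4A1 (0.67) and STXBP5 (0.63). Among the least alike were NTN1 (-0.72) and AGPAT3 (-0.68). The array describes the STXBP5 probe only by a likeness to a predicted protein of Coprinopsis cinerea, so its gene name is uncertain. The PLEKHD1 probe is A_72_P478771, whose r with COX1 A_72_P762153, without group means subtracted, was 0.96.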

How the data were processed

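Liver RNA of 36 pigs was hybridised to 1-colour Agilent pig arrays with 61625 spots. The authors deposited 1 scanner table per array, made with Agilent Feature Extraction 10.10.1.1 as the submitters' processing notes state, whose spot intensity values carry no normalization across arrays. A series table of log2 values that the authors deposited, quantile normalized per their methods, for 42051 probes, was used only as an alternative. Groups came from the labels, with 6 pigs in each of 6 groups of breed and temperature.

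Median spot signals of the 60306 non-control spots were brought to log2 and then quantile normalized. Quantile normalization forces equal distributions on the arrays, and a bright family such as this one can be compressed by it. A probe had to be well above background on 6 or more of 36 arrays, which 44796 of 60305 were (74.3%). Differences were fitted over all of them by lmFit and eBayes of limma 3.58.1 (R 4.3.3), two-sided, with Benjamini-Hochberg adjusted p-values and a threshold of 0.05. The additive model held breed and temperature, and effects within breeds and the interaction (moderated F test) came from a means model of the 6 groups. Pen, slaughter day and parents, random effects in the study's model, are not in the labels and were not used. By mean log2 signal over the arrays, the highest of the kept probes of a gene is called its brightest. Genes of the lists and cell markers were counted by that probe alone, and their other probes were not counted. Overlaps of probes were found from shared stretches of 20 bases. Sequences are those in the scanner tables, and no sequence was taken from a genome.

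Members and gene lists were chosen with earlier results of these data known. The text names the brightest probe of each member, every member probe called in any comparison, each that went against the brightest probe where either was called, at most 3 called genes per list and comparison, and the nuclear genes most and least like the members in pattern, of which 1 is not reported here. On data simulated for HS minus TN over 44723 probes, the fit recovered 92% of changes of 0.5 and 99% of changes of 1 on the log2 scale, and for CR minus LW 78% and 99%. The number of arrays limits the precision. Alternatives were other signals, scalings, filters, models and sets of animals, and comparisons the authors made themselves were not used.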

Additional observations from a re-analysis of the deposited data

Results flagged for a closer look

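Within 144 groups of 6 pigs (24 probes in 6 groups), a single animal stood apart from the rest by more than the critical value of Dixon's ratio in 12, and chance flags about 1 in 20 groups. CR TN replicate 6 was high on COX1 A_72_P762153 at 17.06 (nearest other 13.96), COX3 A_72_P750221 at 16.96 (15.72), ND2 A_72_P719508 at 16.33 (13.83), CYTB A_72_P355338 at 17.84 (16.83), CYTB A_72_P729443 at 18.40 (18.06) and COX3 A_72_P722568 at 18.85 (18.61). CR HS replicate 1 was high on ND1 A_72_P745561 at 15.39 (13.32) and on ND2 A_72_P719508 at 15.82 (13.78). These are the 2 CR pigs that lay on the upper level of the probes with separate levels. F1 TN replicate 4 was high on COX2 A_72_P751248 at 17.62 (17.44) and on COX1 A_72_P724398 at 18.73 (18.60). F1 TN replicate 3 was high on COX3 A_72_P722568 at 18.94 (18.82), and LW HS replicate 5 on ND6 A_72_P442203 at 9.1 (7.87). The part of any of these animals in the differences between breeds was examined only by leaving each out in turn.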

How the results depend on the processing

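Counts are of member probes called in limma. No direction of a called probe reversed under the settings of this section. Within single slides directions were not all kept: in slide 2, 96 of 124 probes lay below 0 for CR minus LW. No paired analysis was possible because replicate numbers were given in accession order and no label pairs animals. HS minus TN had 2 calls. Both were lost with processed signal and without slide 5, where 1 other probe was called, and the count was 0 with median centring, in the authors' table, with no filter, with array weights, with 1 value per gene, without 5 animals lying between breeds, with no breed term, and without slide 1, 2, 3 or 4. CR minus LW fell from 38 to 21 with processed signal, 12 with median centring, 16 in the authors' table, 7 with TN pigs only, 10 with HS pigs only, 13 without slide 4 and 11 without slide 5. F1 minus LW fell from 90 to 4 with TN pigs only, 36 with HS pigs only and 41 without slide 4. F1 minus CR fell from 39 to 0 with TN or HS pigs only, 8 without slide 2, 4 without slide 3 and 14 without slide 4, and F1 minus the parental mean from 58 to 0, 0, 15 without slide 3 and 14 without slide 4. Settings with fewer slides or 1 temperature hold fewer animals. With 1 value per gene, 3, 10, 6 and 8 of the 10 genes were called in the 4 breed comparisons in that order. ND6 was among the 3 and the 10. Its value combines O2495, of unsettled strand, with A_72_P442203, and these differed by 0.74 and -0.35 in F1 minus LW. Leaving out 1 pig gave 0 (LW TN replicate 1, among others) to 6 calls (CR HS replicate 5) for HS minus TN, 29 to 42 for CR minus LW, 81 to 91 for F1 minus LW, 24 (CR TN replicate 1; 25 without CR HS replicate 2 or CR TN replicate 3) to 46 for F1 minus CR and 49 to 60 against the parental mean. Probes still called whichever single pig was left out numbered 0, 25, 81, 23 and 49. CR minus LW on COX2 A_72_P746371 lost its call in 8 such fits (-2.03 to -1.38), on COX3 A_72_P760010 in 7 (-1.26 to -0.84), and F1 minus LW on A_72_P746371 in 5 (1.72 to 1.98). Within breeds and for the interaction the count stayed 0 in every setting.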
